A study of Mus musculus with 10 samples.

Results

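Mbp, the gene of myelin basic protein, was followed through the cochlea of mice fed germanium dioxide. Its members are all probe sets that the authors' deposited table of significant genes lists under the symbol Mbp. There are 2 of them, 1425263_a_at and 1451961_a_at, among 7806 probe sets in that table and 45037 on the array. They stand for 1 of 5488 genes that the table names, and the table gives them opposite signs. In the GeO2 group, 5 samples came from male CBA mice, an inbred strain, that were 6 months old and had eaten 0.15% germanium dioxide in their diet for 4 months. In the control group, 5 samples came from male CBA mice of 6 months on normal chow. All mice were housed alike with a nonpurified diet and acidified water, and total RNA of whole cochlear tissue was hybridised to 1 Affymetrix expression array per sample. The labels do not say whether a sample is 1 animal or a pool, so the p-values below rest on the spread among these 10 samples, part or all of which may be technical.

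Myelin basic protein is a positively charged protein that binds the inner faces of the myelin membrane and holds its layers together. In the cochlea, the axons of spiral ganglion neurons are wrapped by Schwann cells, and by oligodendrocytes where the auditory nerve nears the brain. The messenger RNA is alternatively spliced and is carried out to the growing sheath, where it is translated. The same gene also makes longer transcripts that start upstream, called golli transcripts, which are known from neurons and from cells of the immune and blood systems. RefSeq lists 8 curated and 9 predicted transcripts of the gene, with golli-mbp among its synonyms. Both probe set names end in _a_at, which in Affymetrix naming marks probes shared by several transcripts of 1 gene. Which transcripts or exons each probe set reads was not analysed here.

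The 2 Mbp probe sets moved apart, with 1425263_a_at lower and 1451961_a_at higher in GeO2. They were selected on the p-values of the authors' deposited table, 0.00069 for 1425263_a_at and 0.02458 for 1451961_a_at, where the largest listed p is 0.04997. Because that contrast chose the members, the differences below are a description and carry no test.

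On 1425263_a_at, Mbp gave 3838.1, 2658.4, 3249.1, 2975.1 and 2338.3 signal units on GeO2 arrays 1 to 5. On control arrays 1 to 5 it gave 4930.4, 4780.5, 5978.4, 4721.8 and 4462.8 units. The groups did not overlap, and each of the 25 pairs of a GeO2 with a control array had the lower value in GeO2. Selection on this contrast favours such separation, and how many other probe sets separate as fully was not counted here. It averaged 3012 ± 574 units over the GeO2 arrays and 4975 ± 586 units over the control arrays (SD, n = 5 each). The log2 difference, GeO2 minus control, was −0.73 (SE 0.14), which is 1.66-fold lower. GeO2 replicate 5 was the lowest array and control replicate 3 the highest.

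On 1451961_a_at, Mbp gave 4364.4, 8317.7, 6800.5, 3296.0 and 4619.1 signal units on GeO2 arrays 1 to 5. On control arrays 1 to 5 it gave 4252.4, 2292.6, 2490.5, 2221.7 and 2532.6 units. GeO2 was higher in 24 of the 25 pairs, and the 1 exception set GeO2 replicate 4 against control replicate 1. It averaged 5480 ± 2034 units over the GeO2 arrays and 2758 ± 846 units over the control arrays (SD, n = 5 each). The log2 difference was 0.95 (SE 0.24), a 1.93-fold higher level in GeO2. Control replicate 1 lay well above the other 4 controls, and without it the log2 difference was 1.12.

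**Figure D1:**
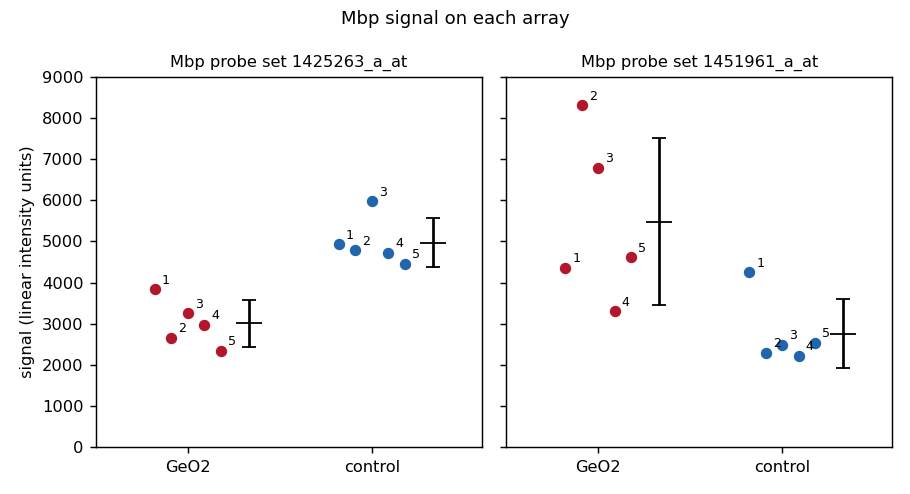
Signal of the 2 Mbp probe sets on each array, in linear intensity units, with GeO2 left of control, replicate numbers beside the points, and bars for the group mean ± SD (n = 5). On 1425263_a_at all GeO2 points lie below all control points, and on 1451961_a_at only control replicate 1 reaches into the GeO2 range.

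The spread between samples differed between the probe sets. The coefficient of variation on 1425263_a_at was 19.1% in GeO2 and 11.8% in control, and on 1451961_a_at it was 37.1% in GeO2 and 30.7% in control. Both probe sets were bright. On 1425263_a_at, Mbp lay between the percentiles 80.3 and 87.3 of all probe sets on the GeO2 arrays, and between 88.8 and 92.2 on the control arrays. On 1451961_a_at it lay between 85.2 and 94.6 in GeO2 and between 79.8 and 88.4 in control. Among the 27022 probe sets kept for testing, the difference of 1425263_a_at stood at percentile 3.96 and that of 1451961_a_at at percentile 98.9.

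The authors' deposited table gives a signed fold change, described there as an average over the 25 pairwise comparisons, of −1.5 for 1425263_a_at and 2.0 for 1451961_a_at. The average of the 25 signed ratios of the deposited signals was −1.70 for 1425263_a_at and 2.02 for 1451961_a_at. Both averages come from the same 10 arrays, but the authors' comparisons need not be ratios of these signals, and the values for 1425263_a_at differ.

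The distance between the probe sets can be followed on each array. The log2 ratio of 1451961_a_at to 1425263_a_at, set to a mean of 0 in control, was 1.07, 2.52, 1.95, 1.03 and 1.86 on GeO2 arrays 1 to 5. It was 0.67, −0.17, −0.37, −0.20 and 0.07 on control arrays 1 to 5. The groups did not overlap, averaging 1.69 ± 0.63 on GeO2 arrays, against 0.00 ± 0.41 on control arrays (SD, n = 5 each), a 3.22-fold shift in the ratio. The value says how unequally the probe sets changed, not which level of Mbp is the larger. Both probe sets were selected on this contrast and have opposite signs in it, which favours such a separation of the groups, so it is a description. How many other genes have probe sets whose ratio separates as fully was not counted here. GeO2 replicate 2 had the widest gap, through the highest value on 1451961_a_at and the second lowest on 1425263_a_at.

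**Figure D2:**
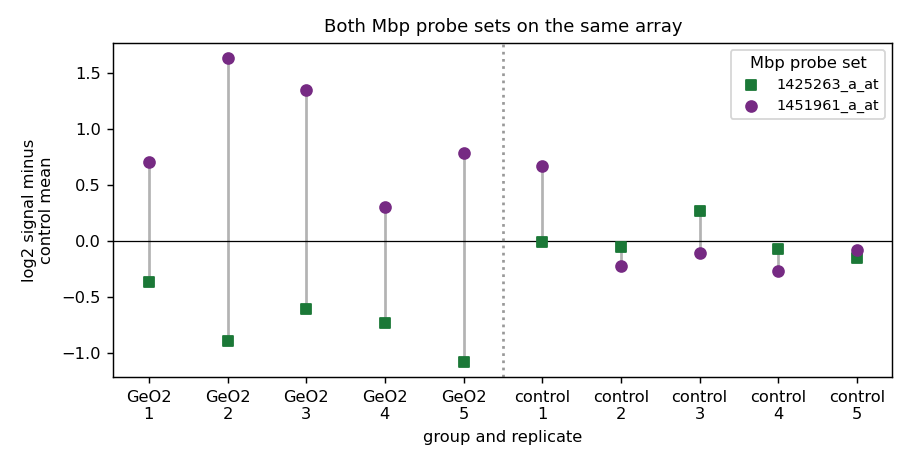
Log2 signal of both Mbp probe sets minus their own control mean, per array, with GeO2 arrays left of control arrays and a line joining the probe sets of 1 array. On all 5 GeO2 arrays 1451961_a_at (circles) lies above 0 and 1425263_a_at (squares) below it, while control replicate 1 is the 1 control array with a gap of over 0.6.

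Within groups, the 2 probe sets were weakly related. The deviations from the group means gave a Pearson r of −0.10 over 10 arrays (exact permutation within groups, two-sided, p = 0.825, adjusted p = 0.923 over 9 relations) and a Spearman rho of −0.24 (exact permutation p = 0.568). Leaving out the most extreme 2 arrays left r at −0.10.

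Opposite signs of the log2 differences computed here were not rare within 1 gene of the authors' table. Among 1116 genes named there with at least 2 probe sets tested, 213 (19.1%) had probe sets on both sides of 0. With exactly 2 probe sets, as Mbp has, it was 148 of 856 genes (17.3%). Counting only probe sets called in limma, it was 65 of 570 genes with at least 2 of them (11.4%). The distance between the highest and the lowest log2 difference of a gene had a median of 0.26 over the 1116 genes and of 1.08 over the 213. For Mbp it was 1.69, and 15 other genes had a distance at least as large. Every probe set in that table had passed the authors' own selection, so differences near 0 are missing from all of these genes.

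**Figure D3:**
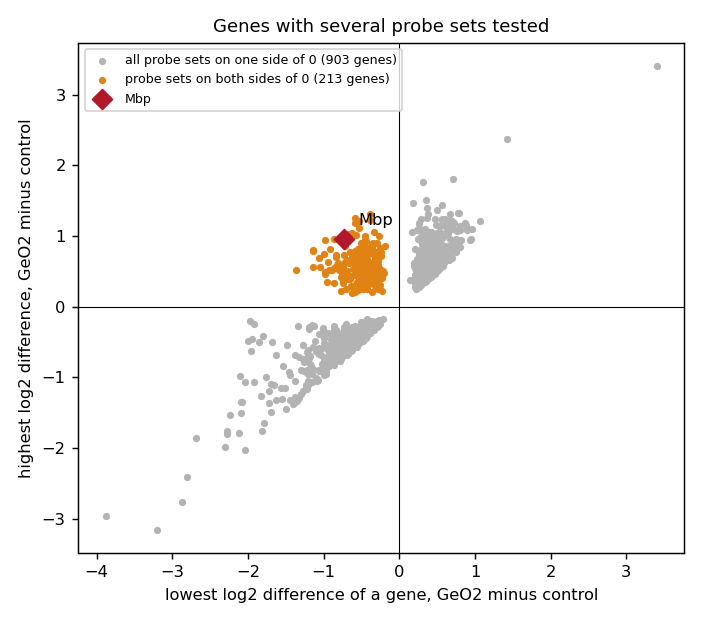
Lowest against highest log2 difference (GeO2 minus control) over the tested probe sets of each gene named in the authors' table with at least 2, 1116 genes in all. Mbp (diamond) lies at −0.73 and 0.95, toward the outer edge of the 213 genes with probe sets on both sides of 0.

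The other genes of myelin were read from 6 lists of 150 symbols, counted on the test of all probe sets. Adgrg6 is among them also under its older symbol, Gpr126. Only the authors' table gives names, so 51 of the 150 could be followed, and every one of them had been selected there for a difference on these arrays. Of the 51, 27 rose, 9 fell and 15 did not pass a Benjamini-Hochberg adjusted p of 0.05 in limma, a linear model fitted across all probe sets. The background was 16.3% called of all 27022 probe sets tested, with 8.50% higher and 7.81% lower. Of the 5126 genes with a name, each at its brightest probe set, 59.4% were called, 29.6% higher and 29.8% lower, and it is this share that the list counts should be read against. The median log2 difference of the 51 genes was 0.42, beside −0.23 over the 5126 named genes and −0.02 over all probe sets tested. When any 1 array was removed, 20 of the 27 rises and 5 of the 9 falls still passed. The lists as sets were not tested.

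Structural proteins of the sheath split in both directions, as the named genes did in general (29.6% called higher, 29.8% lower). Of 25 genes listed, 6 could be followed, of which 3 rose and 3 fell, with a median log2 difference of 0.10. Mobp, a basic protein of oligodendrocyte myelin, averaged 13492 ± 5595 units in GeO2 and 7212 ± 2308 units in control (SD, n = 5 each), a log2 difference of 0.88 (SE 0.25). Prx, periaxin of Schwann cells, averaged 15184 ± 3913 units in GeO2 and 8807 ± 1045 units in control, a log2 difference of 0.75 (SE 0.18). Bcas1, a gene of newly myelinating oligodendrocytes, rose by 0.55 (SE 0.10), and the tetraspanin gene Cd9 fell by 0.66 (SE 0.12). Cnp, the myelin phosphodiesterase, fell by 0.35 and Mal, a proteolipid of myelin membranes, by 0.52. Mobp lost its call without GeO2 replicate 5, control replicate 1 or control replicate 2 (adjusted p in limma up to 0.0773), and Cnp without GeO2 replicate 5, control replicate 3 or control replicate 5 (up to 0.063). Pmp22 and Sox10, both of Schwann cells, have no probe set named in the table and were not analysed here.

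Of 24 transcription factors of myelinating glia, 10 could be followed, of which 7 rose, 1 fell and 2 did not pass (median log2 difference 0.61). Sox2, a factor of immature glia, rose by 0.91 (SE 0.17) on the log2 scale. It is also on the list of hair and supporting cells, and the same probe set is counted in both lists. Zfp24, a zinc finger factor of oligodendrocyte maturation, rose by 0.88 (SE 0.12) and Zeb2, needed for glial differentiation, by 0.85 (SE 0.21). Id2, an inhibitor of myelin gene expression, fell by 1.07 (SE 0.18). Egr2, the factor that switches Schwann cells to myelination, did not pass at its brighter probe set (0.79, SE 0.26, adjusted p = 0.0514 in limma). Its dimmer probe set rose by 0.91 (SE 0.25, adjusted p = 0.025 in limma), a call lost without any 1 of 5 single arrays (adjusted p in limma up to 0.0657). Myef2, a repressor of Mbp transcription that was on no list and was added after its value was seen, rose by 0.81 (SE 0.24, adjusted p = 0.0371 in limma), and lost its call without any 1 of 8 single arrays (adjusted p up to 0.0946).

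Of 20 genes on a list for splicing, transport and translation of the Mbp message, 12 could be followed, of which 6 rose, 2 fell and 4 did not pass (median log2 difference 0.31). Not all of them handle that message directly, as with Lamtor1 and Prmt5 among those followed. When any 1 array was removed, 4 of the 6 rises and 1 of the 2 falls still passed, and the 8 calls became 5 without control replicate 2, with every array shifted to 1 median or with no variance trend. Hnrnpa1 rose by 0.77 (SE 0.13) and Hnrnpab by 0.70 (SE 0.09), both RNA-binding proteins of the splicing and transport machinery. Hnrnpa2b1, whose product binds the transport signal of the Mbp message, averaged 24341 ± 1854 units in GeO2 and 19208 ± 1737 units in control (SD, n = 5 each), a log2 difference of 0.34 (SE 0.09). Lamtor1, a lysosomal scaffold of mTORC1 signalling, fell by 0.84 (SE 0.14) and the splicing repressor gene Ptbp1 by 0.59 (SE 0.16), with the call of Ptbp1 lost without GeO2 replicate 3 or control replicate 2, 4 or 5 (adjusted p in limma up to 0.0632). Qk, the quaking RNA-binding protein that stabilises and splices Mbp messages, was read by 5 probe sets, which also lay on both sides of 0. Its brightest probe set did not pass (0.21, SE 0.09, adjusted p = 0.151 in limma), 2 others rose by 0.66 (SE 0.15) and 0.58 (SE 0.14), and the remaining 2, at 0.29 (SE 0.12) and, for the dimmest, −0.57 (SE 0.22), did not pass. Of the 20 genes of the myelin lists with at least 2 probe sets tested, 3 had them on both sides of 0, Qk and Tcf7l2 among them, and the widest distance, 1.23 for Qk, was below that of Mbp.

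Of 29 symbols of Schwann cell signalling, 9 could be followed, of which 6 rose, none fell and 3 did not pass (median log2 difference 0.58). Bace1, the protease that activates neuregulin, rose by 1.22 (SE 0.23), the kinase gene Akt1 by 0.83 (SE 0.22), the laminin receptor subunit gene Itgb1 by 0.79 (SE 0.17) and Adgrg6, a receptor needed for Schwann cell myelination, by 0.68 (SE 0.17). The call of Akt1 was lost without GeO2 replicate 3, GeO2 replicate 5 or control replicate 3 (adjusted p in limma up to 0.065). Of 29 genes of myelin lipid synthesis, 9 could be followed, with 2 higher, 2 lower and 5 not past the test (median −0.34). Sgms1 (0.86, SE 0.15) and Sptlc2 (0.42, SE 0.11), both of sphingolipid synthesis, rose, and the fatty acid elongases Elovl6 (−0.65, SE 0.12) and Elovl1 (−0.43, SE 0.11) fell. The call of Sptlc2 was lost without GeO2 replicate 5 (adjusted p = 0.0533 in limma) and that of Elovl1 without control replicate 5 (adjusted p = 0.0502 in limma). Of 23 genes of nodes and axoglial junctions, 5 could be followed, with 3 higher, 1 lower and 1 not past the test (median 0.52). The membrane linkers Msn and Rdx rose by 0.72 (SE 0.21) and 0.52 (SE 0.10), and Cntnap2 of the juxtaparanode fell by 0.51 (SE 0.15). Msn lost its call without any 1 of 7 single arrays and Cntnap2 without any 1 of 6 (adjusted p in limma up to 0.0927). The 4 calls of this list became 1 or 2 without GeO2 replicate 2, 4 or 5 or control replicate 1, 3, 4 or 5, and 1 with no filter on dim probe sets.

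**Figure D4:**
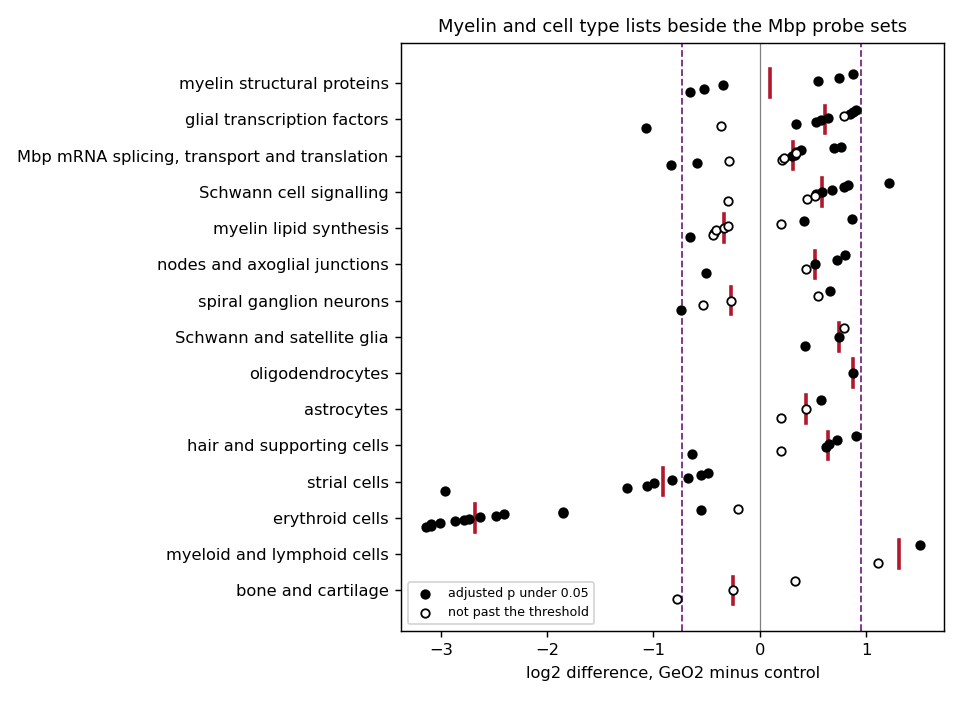
Log2 difference (GeO2 minus control) of the members of each myelin list and cell type list at their brightest named probe set, filled where the adjusted p in limma was under 0.05, with a red bar at each list's median. The dashed lines mark the Mbp probe sets at −0.73 and 0.95, and the structural list, among others, has members near both.

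Markers of other cell types changed in the same tissue, and in bulk RNA fewer cells of a type and less RNA per cell cannot be told apart. Of the named genes 59.4% were called, 29.6% higher and 29.8% lower, and the counts below should be read against that share. Of the markers of Schwann and satellite glia, 3 of 16 could be followed, and Gpm6b, a proteolipid (0.43, SE 0.08), and Prx rose while Egr2 did not pass. Of the oligodendrocyte markers 1 of 11 could be followed, Mobp. Of the markers of spiral ganglion neurons, 5 of 28 could be followed, with 1 higher (Elavl4, a neuronal RNA-binding protein, 0.66, SE 0.15), 1 lower (Ina, a neurofilament-like protein, −0.75, SE 0.12) and 3 not past the test. Of the genes listed as astrocyte markers 3 of 7 could be followed and 1 rose, Slc1a3, a glutamate transporter (0.58, SE 0.16). Its adjusted p in limma was up to 0.0711 when 1 array was left out. Gjb6, which did not pass, is also on the list of hair and supporting cells. Which cells of the cochlea these 3 genes come from was not tested. Of the markers of hair and supporting cells 6 of 17 could be followed, with 4 higher, Sox2 among them, and 1 lower. When any 1 array was removed, 2 of these 4 rises and the fall still passed, and the count of 5 called became 3 without GeO2 replicate 3 or 4, without control replicate 1, 3 or 5, or with no filter on dim probe sets. Markers of strial cells fell at all 8 genes followed of 11, with a median of −0.91, and those of erythroid cells at 13 of 14 followed of 18, with a median of −2.68. When any 1 array was removed, 5 of the 8 strial and 11 of the 13 erythroid falls still passed, with 5 strial calls without GeO2 replicate 5. Among myeloid and lymphoid markers 2 of 19 were tested, of which the scavenger receptor gene Msr1 rose by 1.51 (SE 0.37) and the leukocyte gene Ptprc did not pass (1.11, SE 0.36). Of the bone and cartilage genes 3 of 10 were followed and 0 passed in limma (2 at an unadjusted p under 0.05), and 0 of 12 muscle genes could be followed. As a check of the tissue, 6 cochlear markers were placed among all probe sets of each array. Otor, Otog and Slc12a2 lay between percentiles 92.6 and 98.3 on the GeO2 arrays and between 90.6 and 99.0 on the control arrays. Myo6 lay between 83.9 and 89.7 in GeO2 and between 74.6 and 85.5 in control. The strial markers were lower in GeO2, with Kcne1 between 18.6 and 56.0 in GeO2 and between 75.7 and 85.1 in control, and Tyr between 56.0 and 79.2 in GeO2 and between 76.2 and 84.2 in control. Slc26a5, Otof, Pou4f3 and Myo7a, which define hair cells, have no probe set named in the table and were not analysed here.

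Beside the Mbp values, the mean log2 signal of the 14 erythroid genes ran from 9.18 to 11.76 in GeO2 and from 11.81 to 13.17 in control. Within groups, it gave a Pearson r of −0.33 with Mbp 1425263_a_at (exact permutation p = 0.479, two-sided, adjusted p = 0.905 over 9 relations) and of 0.18 with 1451961_a_at (exact permutation p = 0.704, adjusted p = 0.905). Spearman's rho was −0.27 (exact permutation p = 0.503) and 0.09 (exact permutation p = 0.835), and leaving out the 2 arrays with the most extreme erythroid values gave r of −0.11 and 0.09, in the same order of probe sets. The mean of the 8 strial genes ran from 10.52 to 11.60 in GeO2 and from 12.01 to 12.32 in control. With 1425263_a_at it gave r of 0.74 (exact permutation p = 0.0533, adjusted p = 0.479) and rho of 0.43 (exact permutation p = 0.306), but r of 0.01 once the most extreme 2 arrays were left out, so that relation rests on those arrays. With 1451961_a_at it gave r of −0.06 (exact permutation p = 0.923, adjusted p = 0.923), rho of −0.05 (exact permutation p = 0.903) and, over the 8 least extreme arrays, r of 0.00. Beyond these relations, the part of these cell types in the Mbp values was not tested.

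The means of the neuronal and glial markers were set against Mbp in the same way. The 5 neuronal genes gave r of −0.23 with 1425263_a_at (exact permutation p = 0.517, adjusted p = 0.905), with rho of −0.25 (exact permutation p = 0.53) and, over the 8 least extreme arrays, r of 0.04. With 1451961_a_at they gave r of 0.43 (exact permutation p = 0.22, adjusted p = 0.905), with rho of 0.67 (exact permutation p = 0.0476) and, over the 8 least extreme arrays, r of 0.37. The 3 Schwann and satellite glia genes gave r of −0.39 with 1425263_a_at (exact permutation p = 0.399, adjusted p = 0.905), with rho of −0.04 (exact permutation p = 0.921) and, over the 8 least extreme arrays, r of 0.02. With 1451961_a_at they gave r of −0.22 (exact permutation p = 0.615, adjusted p = 0.905), with rho of −0.21 (exact permutation p = 0.611) and, over the 8 least extreme arrays, r of −0.33. Of the 9 relations, 0 passed the adjustment, and 0 had an unadjusted exact permutation p under 0.05 for Pearson's r, against 1 for Spearman's rho.

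Genes whose samples varied most like Mbp were different for its 2 probe sets. Likeness was Pearson's r of log2 values minus their group means over the 10 arrays, among 5125 named genes, so the difference between the group means does not enter. All 5125 are named only because the authors' table selected them on this contrast, which therefore still decides which genes can appear. Highest for 1425263_a_at was Cryab, the small heat shock protein alpha B-crystallin, with r of 0.96, followed by Plekhh1, Krit1 and Fgd6 (r of 0.93 each) and Acbd3, a Golgi protein (0.91). Cryab fell in GeO2, with a log2 difference of −0.52 (SE 0.11, adjusted p = 0.00898 in limma), and it also ranked 1 by Spearman's rho (0.96). Its r with the groups left uncentred (0.99) includes the contrast on which both genes were selected, so it adds nothing to the likeness. By Spearman's rho, Fgd6 ranked 2, but Krit1 ranked 32, Plekhh1 46 and Acbd3 72. Highest for 1451961_a_at was Impdh1, an enzyme of guanine nucleotide synthesis, with r of 0.92, followed by Dynll2, a dynein light chain (0.90), Rab40c (0.90), 5730409E04Rik (0.89) and Cygb, cytoglobin (0.89). By Spearman's rho, Impdh1 ranked 18, Dynll2 33, Rab40c 22, 5730409E04Rik 7 and Cygb 12. Among the controls, all 5 were highest on control replicate 1, the array that stood apart on 1451961_a_at. The log2 differences of these 5 lay between −0.66 and −0.36, against the direction of 1451961_a_at, so their r with the groups left uncentred was negative, from −0.38 to −0.03. With 10 arrays and 5125 genes the top of such a ranking is high in any data, and the values are a description.

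**Figure D5:**
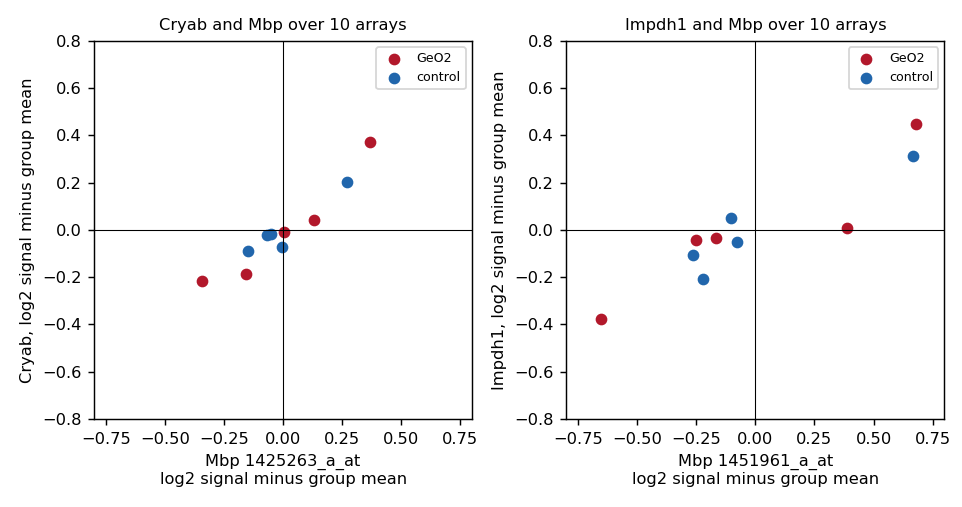
Log2 signal minus group mean of the most similar gene against that of each Mbp probe set, 1 point per array, GeO2 in red and control in blue. Cryab follows Mbp 1425263_a_at with r of 0.96, and Impdh1 follows Mbp 1451961_a_at with r of 0.92 over the 10 arrays.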

How the data were processed

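Each array has 1 linear signal intensity for every probe set, which the authors deposited after GCOS 1.3, per the submitters' processing notes. All arrays share a 2% trimmed mean of 1496, so they were already scaled, and the array medians ran from 446.8 to 484.4 in GeO2 and from 447.6 to 508.4 in control. Precision is limited by the number of arrays. The authors' deposited table adds a p-value from an unnamed test and a signed fold change (a score, minus where GeO2 is lower) for 7806 probe sets, of which 7108 have 1 symbol, 87 several and 611 none. Names come from that table, so a probe set outside it has no name here. RefSeq genes of GRCm38.p6 served only to update symbols (4291 current, 2354 matched to 1 synonym). No coordinates or sequences are printed.

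Signals were turned into log2(signal + 16), the lowest 40% of probe sets by mean over all arrays (18015) were left out, and limma 3.58.1 in R 4.3.3 was fitted (lmFit, eBayes with trend, two-sided), with Benjamini-Hochberg adjustment over 27022 probe sets at 0.05. This scale understates changes of dim probe sets. The code was tested on simulated data. A gene has 1 probe set, its brightest. Named are both Mbp probe sets, up to 4 members per list, by change among those called, else by p, the 5 genes most like each probe set, and Pmp22, Qk, Sox10 and Egr2. Some genes that the rule selects are left out here. Cnp, Mal and other further list members were added after their values were seen. The Mbp members and the 16 lists were chosen with earlier results of these data known. Relations used all 14400 permutations within groups. Alternatives were other scaling, offsets, filters, weights, a fit without trend, a gene mean over probe sets, left-out arrays and the replicate number as a block.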

Additional observations from a re-analysis of the deposited data

Results flagged for a closer look

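Of 126 groups of 5 values examined, 5 held a highest or lowest value that stood apart from the rest by Dixon's criterion, and chance gives about 1 in 20. On Mbp probe set 1451961_a_at, control replicate 1 gave 4252.4 units, where the other 4 controls lay between 2221.7 and 2532.6 units. Mobp gave 23307 units on GeO2 replicate 2, the array with the highest Mbp value on 1451961_a_at, where the other GeO2 arrays lay between 9986 and 12875 units. Otog gave 10013 units on control replicate 2, above the other controls at 5179 to 6165 units. Atp1b2 gave 24221 units on control replicate 3, above the other controls at 19598 to 20903 units. The mean log2 signal of the erythroid genes was 11.81 on control replicate 3, below 12.84 to 13.17 on the other controls.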

How the results depend on the processing

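The differences of both Mbp probe sets kept their sign under all 16 alternatives run for them and moved by less than the SD between samples. Some of these outcomes were fixed in advance. No single array left out could reverse 1425263_a_at, which is lower in each of the 25 pairs. A shift to 1 median moves both probe sets of an array alike, so it cannot change their distance. Selection on this contrast also makes a kept sign likely. They ran from −0.83 to −0.65 for 1425263_a_at and from 0.78 to 1.12 for 1451961_a_at, and their distance from 1.48 to 1.85, with the same limits when single arrays were left out. Leaving out 1 array at a time gave 2794 to 4854 probe sets called, 1435 to 2482 higher and 1343 to 2372 lower. The lowest totals were 2794 without GeO2 replicate 5 (1435 higher, 1359 lower) and 2815 without control replicate 1 (1472 higher, 1343 lower). The same leave-outs gave 27 to 40 of 51 myelin genes called, 20 to 30 higher and 6 to 10 lower. With every array shifted to 1 median, 5 myelin genes were called lower rather than 9, and the cause was not tested. Single named genes changed sign in none of 897 repeats, lost their call in 70 and gained it in 8. They were selected on this same contrast, so a change of sign was unlikely from the start. Likeness to Mbp without group centring reversed for Fgd6 (−0.32), Impdh1 (−0.27), Dynll2 (−0.38), Rab40c (−0.32), 5730409E04Rik (−0.028) and Cygb (−0.23), where the gene's group difference opposes that of the Mbp probe set. Same-numbered arrays of the 2 groups were little alike, correlating at −0.05 to 0.17, and 2 of 10 arrays correlated best with their own number. Whether the numbers pair the samples cannot be told from these values. With the replicate number as a block, 4431 probe sets (2288 higher, 2143 lower) and 35 myelin genes were called, and the Mbp differences were −0.73 and 0.95, with a distance of 1.69. A balanced block cannot change those differences. Names limited to the authors' table leave 99 of 150 myelin symbols unread, and no array control was used to grade the RNA. Gpr126 counts among the 99, although its gene was read as Adgrg6.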
